A study of Mus musculus with 37 samples.

Results

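Chemokines are small secreted proteins that bind G protein-coupled receptors on leukocytes and steer their movement into tissue, and the genes described here are the mouse chemokines, their receptors and the atypical chemokine receptors in hearts sampled after cardiac arrest. Members were the genes whose symbol begins with Ccl, Cxcl, Xcl, Cx3cl, Ccr, Cxcr, Xcr, Cx3cr or Ackr followed by a number, and which were above 0 in at least 4 of the 37 libraries. The name rule matched 61 of the 56748 genes in the table and 51 of them were members, of which 38 passed the filter on low values and 13 did not. RNA from the left ventricle of C57BL/6J mice of both sexes, aged 8 to 10 weeks, was sequenced in 9 groups. Naïve mice (n = 5) were anaesthetised with isoflurane and were neither intubated nor injected. Adr mice, which the labels call sham, were anaesthetised with isoflurane, ventilated and given 40 µL of saline into the left ventricle, then 500 µL of adrenaline at 15 µg/mL into the ventricle 8 min later. Arrest mice received 40 µL of 0.5 M potassium chloride instead, stayed in asystole for 8 min, and were resuscitated with the same adrenaline and with chest compressions. Adr and Arrest hearts were collected after 0.5, 1, 3 and 7 days (n = 4 per group and day). Adrenaline, ventilation and needle entry were therefore shared by both procedure arms and absent from Naïve mice. Naïve mice were also killed after their imaging, without the days of recovery that the procedure arms had. A difference of either arm from Naïve therefore cannot be assigned to one of these features. Only mice that regained a heartbeat and survived were sampled, and the apex with the needle track was removed.

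Ligands of the CXC class such as Cxcl1, Cxcl2 and Cxcl5 act on Cxcr2 and draw neutrophils. The CC ligands Ccl2, Ccl7, Ccl8 and Ccl12 draw monocytes, and Ccl2, Ccl7 and Ccl12 do so chiefly through Ccr2. Other members are made in resting tissue and place cells there, such as Cxcl12 for cells that carry Cxcr4 and Ccl21a for cells that carry Ccr7. The atypical receptors bind chemokines without the usual G protein signal and take them up, and thereby set how much ligand is free. In injured myocardium the family is known for early neutrophil and later monocyte recruitment.

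Expression was measured as FPKM, a fragment count scaled to the length of the gene and to a factor of each library. The libraries held 13197037 to 30179901 fragments on genes, and the factor did not follow these totals alone. A fragment on a kilobase of gene was worth 0.0414 FPKM in replicate 3 of Adr 3 d, with 17169619 fragments. In replicate 3 of Arrest 1 d, with 14529358 fragments, it was worth 0.0774 FPKM. Differences were tested with limma on log2(FPKM + 1), so that a log2 fold change understates the change of a gene near 0, and a call means a Benjamini-Hochberg adjusted p of at most 0.05. Cardiomyocyte markers were abundant in every library, with a sum of 7080 to 15700 FPKM over 7 genes in 36 libraries. Replicate 3 of the Adr 3 d group stood apart, at 3300 FPKM for these markers and 9.36% of fragments on mitochondrial genes, against 26% to 28.1% in the other 3 libraries of its group. Calls of members are therefore given with this library (37 libraries) and without it (36 libraries), and other values are those of all 37 libraries unless stated. Nothing in the sources states that the libraries came from separate litters or days, so p-values measure the spread between these mice and their libraries.

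In Naïve hearts 6 members had a mean of at least 10 FPKM, 15 lay between 1 and 10, and 30 were below 1, including 11 that were listed at 0 in all 5 libraries. Ccl21a, the ligand of Ccr7 made by lymphatic vessels, was highest at 60.7 ± 24.9 FPKM (SD, n = 5). Ackr3, a scavenging receptor for Cxcl12, followed at 32.6 ± 5.6, and Cxcl12 itself stood at 25.3 ± 3.54. Ccl6, a ligand of Ccr1 made by myeloid cells, was at 23.9 ± 5.54, a distance from Cxcl12 that is smaller than either spread. Ccl9, a further Ccr1 ligand, was at 14.3 ± 4.82 and Cxcl14, made by epithelial and stromal cells, at 13.8 ± 5.16, again closer to each other than their spread. Receptors of the inflammatory ligands were low, with Ccr2 at 0.796 ± 0.33 and Ccr1 at 0.669 ± 0.798 FPKM. Of the 51 members, 19 were above 0 in all 37 libraries.

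**Figure D1:**
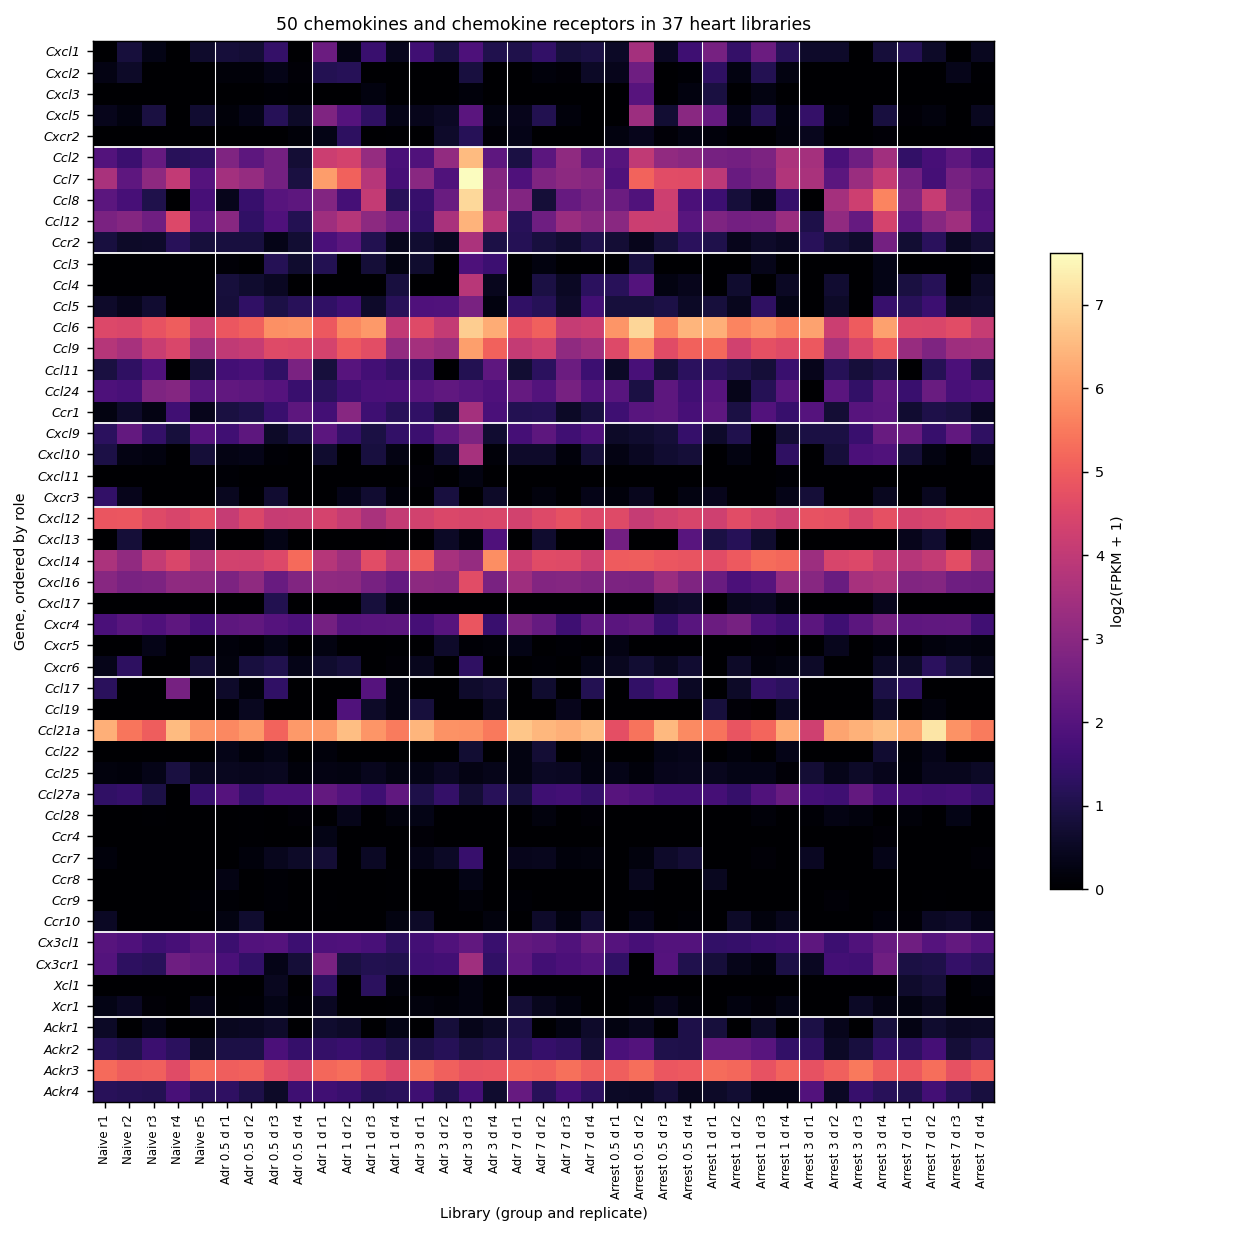
Heat map of log2(FPKM + 1) for 50 members (rows, ordered by role and separated by white lines) in the 37 libraries (columns, by group and replicate). Ccl21a, Ackr3, Cxcl12, Ccl6, Ccl9 and Cxcl14 form the bright rows in every group, and replicate 3 of the Adr 3 d group is the brightest column of the monocyte-attracting block.

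Comparison with Naïve asked which members differed after each procedure, and all 8 of these comparisons share the same 5 Naïve libraries. In Arrest mice at 0.5 d, 1 of 38 tested members passed the threshold, Ccl6, which rose, beside 3.21% of all 16530 genes tested. At 1 d 5 members passed, with Cxcl1, Cxcl14, Ccl27a and Ackr2 higher and Ackr4 lower, where 7.11% of all genes passed. In Adr mice at 1 d 2 members passed, Ccl27a higher and Cxcl12 lower, beside 0.69% of all genes. These shares of the members, 2.63% at 0.5 d and 13.2% at 1 d after arrest and 5.26% at 1 d after adrenaline, rest on few genes. In the other comparisons limma called 0 members. Of all genes 0.139% passed in Arrest mice at 3 d, 0% at 7 d, 0.188% in Adr mice at 0.5 d, and 0% in Adr mice at 3 d and 7 d. By unadjusted p (0.05 or less) the members numbered 4 and 2 in Arrest mice at 3 d and 7 d, and 5, 8 and 1 in Adr mice at 0.5 d, 3 d and 7 d. The same p was reached by 13.7%, 5.15%, 14%, 13.9% and 6.15% of all genes in that order.

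Without replicate 3 of the Adr 3 d group the spread of many members was smaller and more passed. Arrest mice at 0.5 d then had 5 members called, Ccl4, Ccl6, Ccl27a, Ccr1 and Cxcl14, all higher, beside 5.51% of all genes. At 1 d 8 members passed, Ccl6, Ccl27a, Ccr1, Cxcl1, Cxcl14 and Ackr2 higher and Cx3cr1 and Ackr4 lower, beside 10.3% of all genes. Adr mice at 1 d had 5, with Ccl2, Ccl27a, Ccr1 and Xcl1 higher and Cxcl12 lower, beside 2.52%. In the remaining comparisons with Naïve 0 members passed in limma without that library, where 1.13%, 0%, 1.35%, 0% and 0% of all genes passed in Arrest mice at 3 d and 7 d and in Adr mice at 0.5 d, 3 d and 7 d. By unadjusted p the members numbered 6, 6, 8, 3 and 2 in the same order, where 16.1%, 5.95%, 16.1%, 7.28% and 7.2% of all genes had such a p.

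Comparison of Arrest with Adr mice on the same day asked what potassium chloride in place of saline, asystole and compressions together added to adrenaline. With 37 libraries limma called 0 members on each of the 4 days, beside 0% of all genes up to 3 d and 0.00605% at 7 d. From the first to the last day, 4, 6, 3 and 2 of the 38 members had an unadjusted p of 0.05 or less, as did 3.86%, 6.59%, 5.37% and 2.52% of all genes. Without replicate 3 of Adr 3 d 0 members and 0% of all genes passed in each of these, and 5, 8, 4 and 2 members had such an unadjusted p, beside 4.68%, 8.45%, 5.67% and 3.15% of all genes. A p over the threshold does not show that the arms were alike. Within the Arrest arm, 0.5 d against 7 d gave 0 members with 37 libraries beside 0.381% of all genes, and 9 members beside 11.5% of all genes had an unadjusted p of 0.05 or less. With 36 libraries Ccl6 and Ccl9 were higher at 0.5 d, 2 members beside 1.25% of all genes. Within the Adr arm the same contrast called 0 members with 37 libraries beside 0.00605% of all genes, and 0 with 36 libraries beside 0.387%, with 2 and 5 members at such an unadjusted p, where 8.11% and 9.89% of all genes had one.

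**Figure D2:**
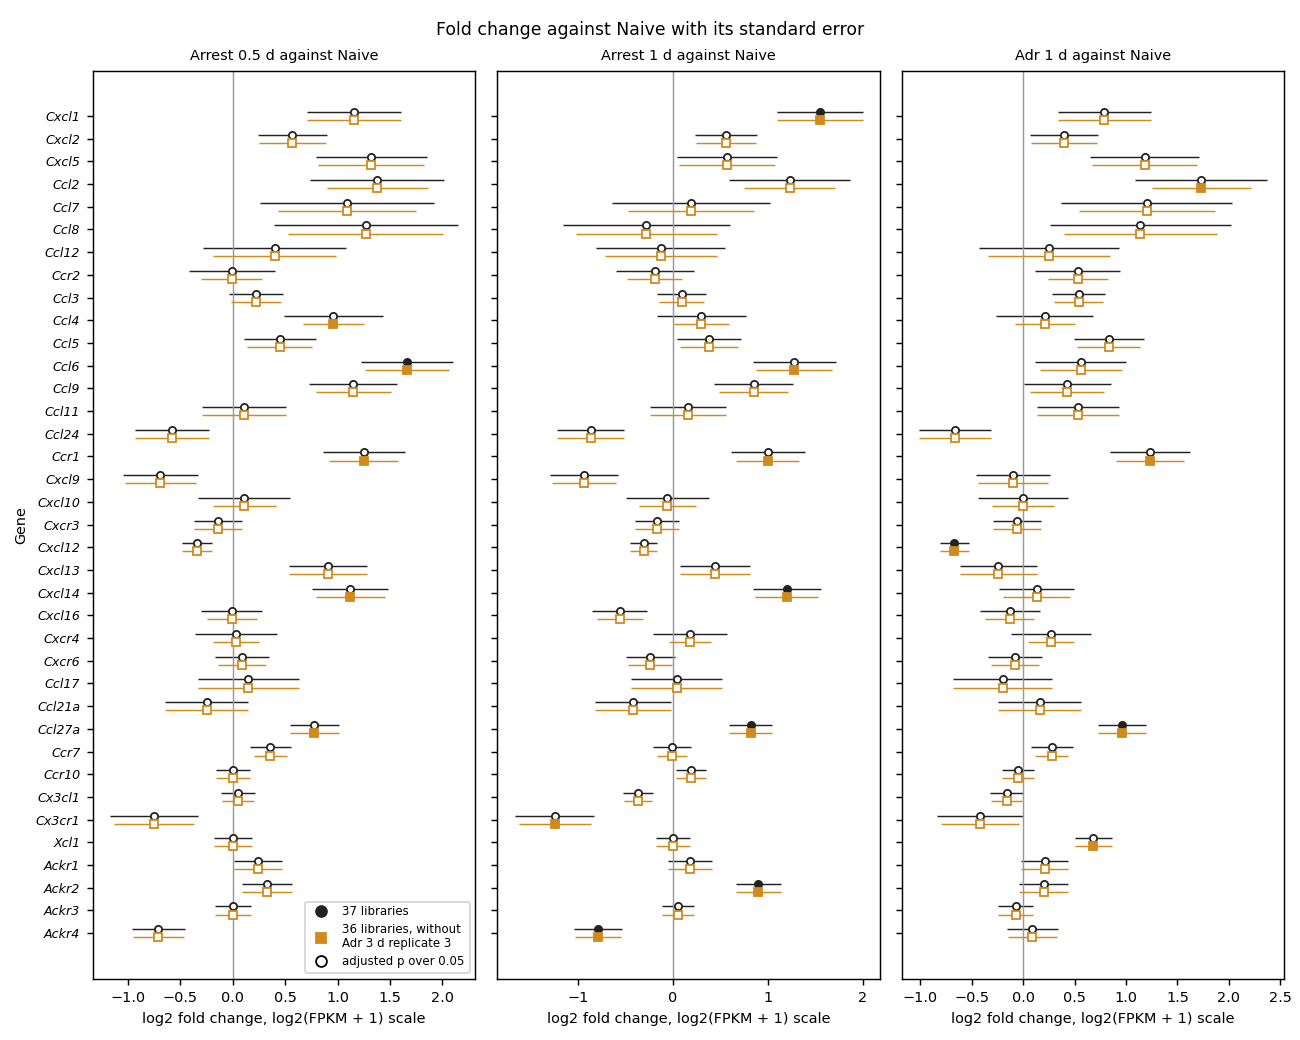
Log2 fold change against Naïve on the log2(FPKM + 1) scale (horizontal axis) with its standard error (bars) for 37 tested members (vertical axis) in Arrest mice at 0.5 d and 1 d and Adr mice at 1 d. Black circles are fits of 37 libraries and orange squares fits of 36 libraries, and filled symbols are adjusted p of at most 0.05, as for Ccl6 in the left panel and Cxcl12 in the right one.

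Ccl6 and Ccl9, neighbours on chromosome 11 whose products act on Ccr1, had the highest mean levels among the inflammatory CC ligands in Naïve mice. Ccl6 was at 59.8, 126, 51.3 and 86.4 FPKM in Arrest mice at 0.5 d and at 22.5, 21.3, 27.2, 31.5 and 17.1 FPKM in Naïve mice. The groups did not overlap. This gave a log2 fold change of 1.66 ± 0.44 (SE), with an adjusted p of 0.034 with 37 libraries and 0.015 with 36. At 1 d after arrest Ccl6 ranged from 47.7 to 80.6 FPKM, above all Naïve libraries, with a log2 fold change of 1.28 ± 0.44 and an adjusted p of 0.071 with 37 libraries and 0.039 with 36. By 7 d it ranged from 16.6 to 24.2 FPKM, overlapping Naïve. Adr mice had 28.6 to 59.7 FPKM at 0.5 d, 15.4 to 63.3 at 1 d, 15.8 to 114 at 3 d (at most 77.6 without replicate 3) and 16.1 to 33 at 7 d, and no Adr comparison passed. Arrest mice at 3 d had 17.5 to 69.5 FPKM. The adjusted p of Ccl6 in Arrest mice at 0.5 d was between 0.055 and 0.16 when replicate 1, 2 or 4 of Arrest 0.5 d or replicate 1, 2 or 5 of Naïve was left out, while its log2 fold change stayed between 1.42 and 1.84.

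Ccl9 ranged from 22.7 to 54.4 FPKM in Arrest mice at 0.5 d, above every Naïve library (9.64 to 21.4) and every Arrest library at 7 d (5.86 to 9.79). Against 7 d its log2 fold change was 1.82 ± 0.44, with an adjusted p of 0.055 with 37 libraries and 0.014 with 36. Against Naïve it was 1.15 ± 0.42, with an adjusted p of 0.12. Ccl6 against Arrest at 7 d also gave 1.82 ± 0.46, with an adjusted p of 0.072 with 37 libraries and 0.025 with 36. Ccr1, the receptor of both ligands on neutrophils and monocytes, was at 2.04, 3.19, 3.43 and 2.37 FPKM in Arrest mice at 0.5 d, and at 0.203, 0.533, 0.215, 2.08 and 0.315 in Naïve mice. Replicate 4 of Naïve, the library with the fewest genes above 0, was the only Naïve library to reach the Arrest range. The log2 fold change of Ccr1 was 1.25 ± 0.39 at 0.5 d and 1.00 ± 0.39 at 1 d after arrest, with adjusted p of 0.073 and 0.12 with 37 libraries and 0.022 and 0.048 with 36. In Adr mice at 1 d it was 1.23 ± 0.39, with an adjusted p of 0.12 with 37 libraries and 0.041 with 36. Without replicate 3 of Adr 3 d, Ccl6 and Ccr1 were thus both called higher after arrest at 0.5 d and 1 d, whereas Ccl9 was not called against Naïve (adjusted p = 0.054 at 0.5 d).

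Ccl4, which attracts monocytes and T cells, was listed at 0 in all 5 Naïve libraries and at 1.3, 2.96, 0.195 and 0.332 FPKM in Arrest mice at 0.5 d, where 2 to 33 fragments lay on it, and its log2 fold change was 0.96 ± 0.47, with an adjusted p of 0.28 with 37 libraries and 0.043 with 36. Ccl5, which attracts T cells and monocytes, was at 2.67, 2.8, 5.48 and 0.166 FPKM in Adr mice at 3 d and at 0 to 0.634 in Naïve mice, a log2 fold change of 1.33 ± 0.34 with an adjusted p of 0.13. Without replicate 4 of Adr 3 d its adjusted p was 0.019, and without replicate 3 of that group 0.52. Ccl3 had the value 0 in all Naïve libraries and 0.591, 0, 2.6 and 1.98 FPKM in Adr mice at 3 d, with an adjusted p of 0.13, of 0.025 without replicate 2 of that group and of 0.52 without replicate 3. The eosinophil attractants Ccl11 and Ccl24 passed in no comparison with 37 or 36 libraries.

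Marker genes of the cells that make and carry these proteins were read in the same libraries. The summed neutrophil markers (12 genes) ranged from 5.8 to 36.4 FPKM in Arrest mice at 0.5 d and from 0 to 12.2 in Naïve mice. Ly6g, the defining marker of mouse neutrophils, was listed at 0 in all groups. It was at 0 even where S100a8, an abundant neutrophil transcript, was at 11.8 FPKM (Arrest 0.5 d replicate 2) and 13.2 FPKM (Adr 0.5 d replicate 4). The value of Ly6g therefore does not show that neutrophils were absent. By flow cytometry and tissue staining, the paper reports more neutrophils in hearts early after arrest than in Naïve hearts. None of the 7 tested neutrophil markers was called with 37 libraries, and 1 of them (Trem1) was higher with 36. Of all genes 3.21% passed in Arrest mice at 0.5 d with 37 libraries and 5.51% with 36, and 7.11% passed at 1 d with 37. Macrophage markers (11 genes) summed to 296 to 404 FPKM in Arrest mice at 0.5 d and to 210 to 358 in Naïve mice, with 0 of 11 called at 0.5 d and 1 (Cd163, higher) at 1 d. With 36 libraries C1qb (0.78, adjusted p = 0.046) and C1qc (0.90, adjusted p = 0.019) were higher in Arrest mice at 3 d. Cd68 was then higher in Adr mice at 1 d (1.12, adjusted p = 0.046). Of all genes 1.13% and 2.52% passed in these comparisons. Inflammatory monocyte markers (9 genes, Ccr2 among them) summed to 29.9 to 52.1 FPKM in Arrest mice at 0.5 d against 17.1 to 26.7 in Naïve mice, with 0 of 8 tested markers called with 37 libraries and 1 (Chil3, higher) with 36. Chil3 was also higher with 36 libraries in Arrest mice at 3 d (2.53, adjusted p = 0.0071). Fn1 gave 17.2 FPKM of the highest sum at 0.5 d. Ly6c2 was at 0.0216 to 1.64 FPKM in Arrest mice at 0.5 d and at most 0.222 in Naïve mice. Ccr2 was at 0.324 to 1.35 FPKM and 0.503 to 1.32 FPKM in these groups. The part of the marked cells in the levels of Ccl6, Ccl9 and Ccr1 was not tested, and in RNA from whole tissue more cells and more RNA per cell cannot be told apart.

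**Figure D3:**
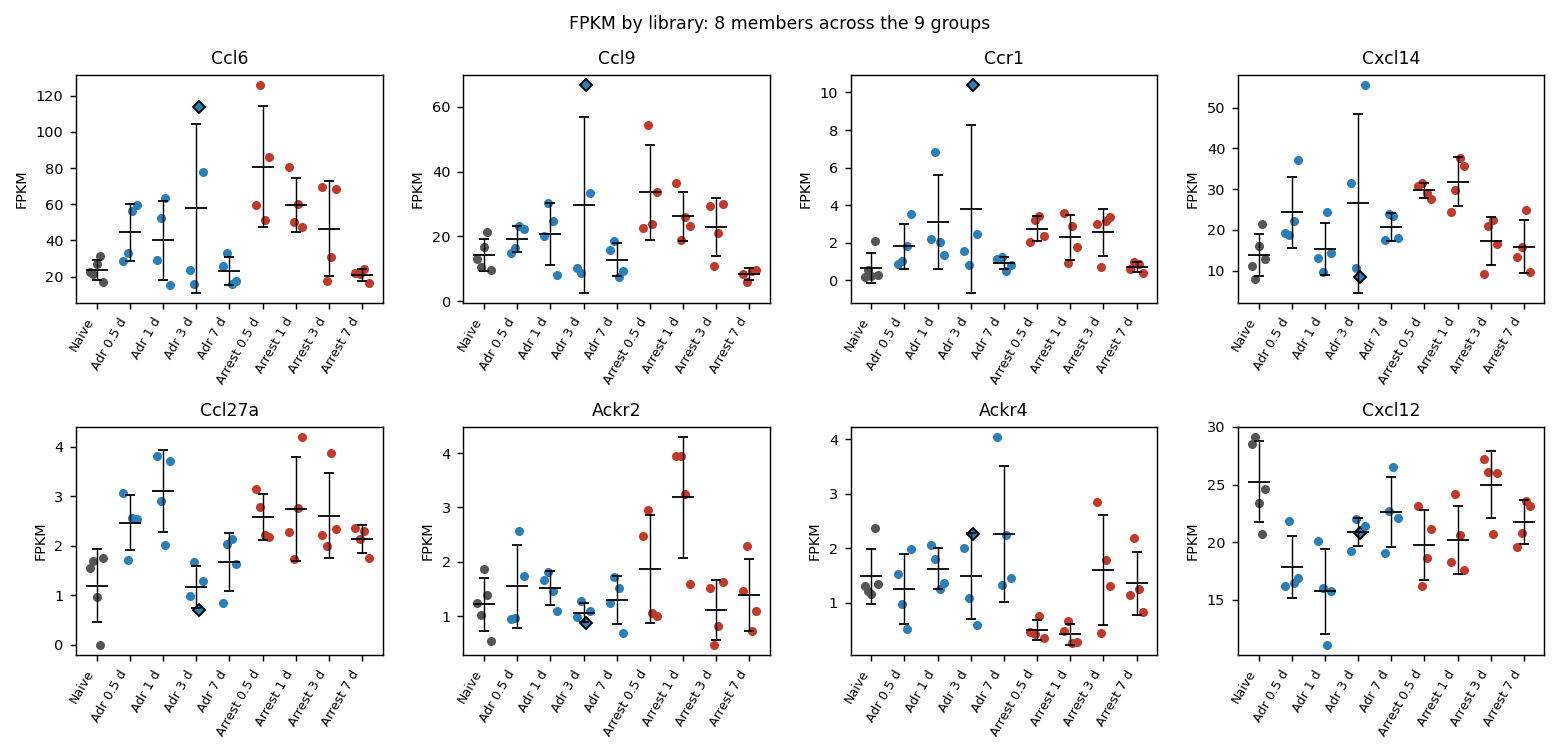
FPKM of 8 members in each library (points) by group (horizontal axis), with the group mean and SD (bars); the diamond is replicate 3 of Adr 3 d. Ccl6 and Ccl9 in Arrest mice at 0.5 d lie above all Naïve libraries, and Ackr4 in Arrest mice at 0.5 d and 1 d lies below all Naïve libraries.

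The monocyte-attracting CC ligands varied widely between libraries of a group. Ccl2, the main ligand of Ccr2, was at 17.5, 19.7, 8.39 and 2.45 FPKM in Adr mice at 1 d and at 1.29 to 4.08 in Naïve mice, with replicate 4 of Adr inside the Naïve range. Its log2 fold change was 1.73 ± 0.64, with an adjusted p of 0.19 with 37 libraries. With 36 libraries its standard error was 0.48 and the adjusted p was 0.049. In Arrest mice Ccl2 was at 3.07, 14.9, 7.86 and 7.16 FPKM at 0.5 d, and at 5 to 11.4 FPKM at 1 d, above all 5 Naïve libraries; no Arrest comparison passed for this gene. Ccl7, a second Ccr2 ligand next to Ccl2 on chromosome 11, reached 65.1, 33.4 and 13.2 FPKM in 3 Adr libraries at 1 d with 2.37 in the other, and 34, 24.4 and 23.6 FPKM in 3 Arrest libraries at 0.5 d with 2.67 in the other. Naïve libraries held 3.06 to 15.4 FPKM of Ccl7, so both groups overlapped them, and the adjusted p was 0.52 for each. Ccl8, also a monocyte attractant, was at 0, 10.4, 17.9 and 49.9 FPKM in Arrest mice at 3 d and at 0 to 3.38 in Naïve mice. Replicate 1 of Arrest 3 d was at the lowest Naïve value and the other 3 libraries were above all Naïve ones, a log2 fold change of 2.02 ± 0.88 with an adjusted p of 0.29. Ccl12, the mouse neighbour of Ccl2, ranged from 3.32 to 22.2 FPKM in Naïve mice alone and passed in no comparison. Ccr2 was between 0.257 and 1.35 FPKM in all Naïve, Adr 0.5 d and Arrest 0.5 d libraries, and its log2 fold change in Arrest mice at 0.5 d was -0.01 ± 0.41 (adjusted p = 1).

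Replicate 3 of the Adr 3 d group held 950 FPKM over the 51 members, against 160 to 439 in the other 36 libraries, and was the highest of all 37 libraries in 20 members. Ccl2 was at 92.4 FPKM in it, against 2.79, 3.54 and 7.95 in the other Adr libraries at 3 d and at most 19.7 in any other library. Ccl7 was at 196 FPKM, with at most 65.1 elsewhere. Ccl8 stood at 128 (at most 49.9 elsewhere) and Ccl12 at 84.6 (at most 22.2 elsewhere). Cxcr4, the Cxcl12 receptor on many leukocytes, was at 28.3 FPKM against 1.83 to 5.47 in the other 36 libraries. Ccr2 was at 11.3 FPKM and Cx3cr1, the fractalkine receptor of monocytes and macrophages, at 9.65, where the other libraries held at most 5.13 and 5.51. Cxcl16, Cxcl10, Ccl4, Ccl5 and Ccr1 were at 24.4, 10.5, 13.4, 5.48 and 10.4 FPKM in the same library. Not all members moved in it, since Cxcl12 (20.8 FPKM), Ackr3 (27.5) and Ccl21a (56.2) lay within the range of the other libraries and Cxcl14, at 8.46, was above only 1 of the other 36.

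Markers of several cell types were also high in that library. Macrophage markers summed to 1090 FPKM (179 to 581 in the other 36), inflammatory monocyte markers to 204 (14.5 to 87.6) and platelet markers to 293 (33.2 to 118). Pf4 alone gave 282 FPKM of the platelet sum, which therefore rested on that gene. Fn1 gave 99.9 FPKM of the monocyte sum. Fibroblast markers summed to 819 FPKM (209 to 482), with Col1a1 at 394 FPKM, while cardiomyocyte Myh6 was at 379 FPKM. The part of these cells in its chemokine levels was not tested. The effect on the group was large. With it, 30 of 38 members had a positive log2 fold change in Adr mice at 3 d, with a median of 0.39, against 0.02 over all genes. Without it 19 of 38 did, with a median of 0.03, against 0.01 over all genes. The log2 fold change of Ccl7 in Adr mice at 3 d went from 0.87 ± 0.83 to -0.38 ± 0.72, that of Ccl12 from 0.83 ± 0.68 to -0.05 ± 0.64 and that of Cxcr4 from 0.58 ± 0.39 to -0.20 ± 0.24. None of these passed in either fit. For Arrest against Adr at 3 d, 7 of 38 members had a positive difference with the library and 20 of 38 without it.

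**Figure D4:**
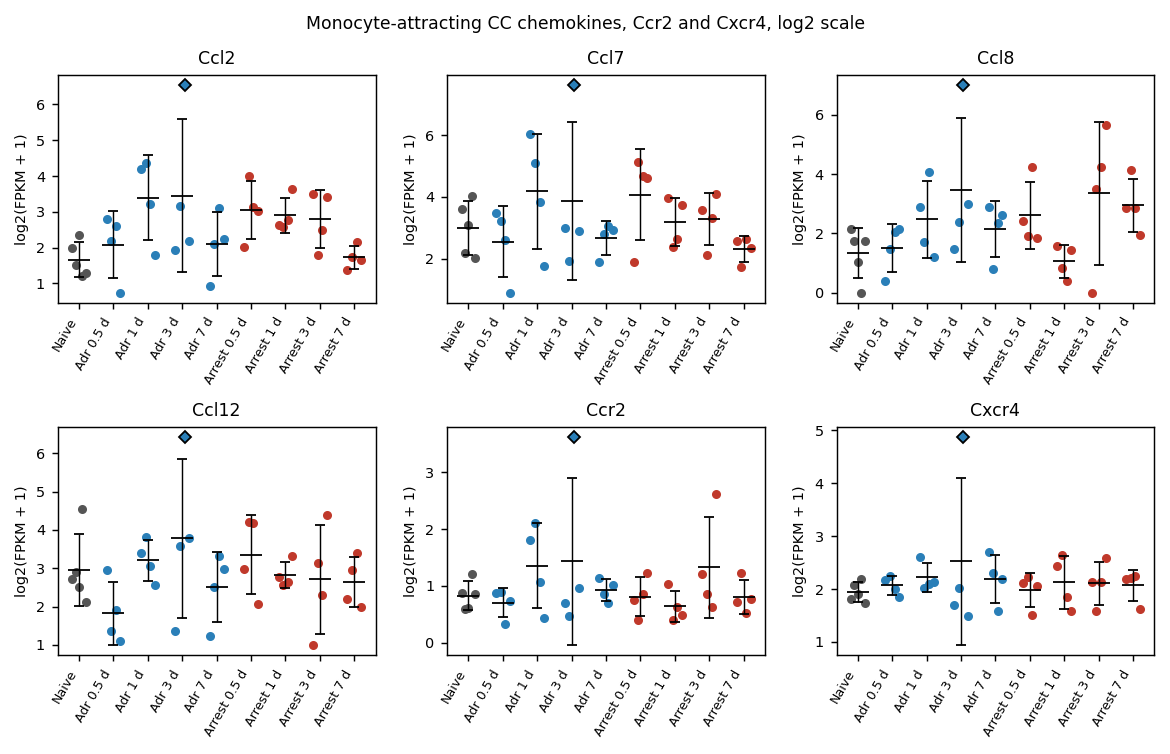
Log2(FPKM + 1) of Ccl2, Ccl7, Ccl8, Ccl12, Ccr2 and Cxcr4 in each library (points) by group (horizontal axis), with the group mean and SD (bars) and replicate 3 of Adr 3 d as a diamond. The diamond is the highest point of every panel, with Ccl2 at 92.4 FPKM and Ccl7 at 196 FPKM.

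The neutrophil-attracting CXC ligands lie on chromosome 5, and 3 of them share a run of bases before their start. RefSeq promoter sequences (GRCm38.p6) were at hand for 37 of the 51 members, and the 250 bases before each start were searched on both strands for GGGA and TTCC with any 2 bases between them, a form of the kB motif bound by NF-kB. It was found in 4 members, Cxcl1, Cxcl2, Cxcl3 and Cxcl10, and in 1.21% of 32851 promoters. A pair of GAAA with any 2 bases between them, a core of the interferon-stimulated element, was found in Cxcl10, Cxcl14 and Ccl19, and in 2.98% of promoters. A member counted as found when any of its promoter sequences matched, whereas the percentages are over single promoters, so counts and percentages differ in unit. These promoters are shown because Cxcl1, Cxcl2 and Cxcl3 were highest in the same library, described after them. Cxcl5 was also highest in that library and was not among the members found with the motif. Whether Cxcl5 was among the 37 members with a sequence is not given here. Cxcl10, found with the motif, was at 0.394 FPKM in that library. Capitals mark the motifs, which overlap on both strands in the first 3, and each sequence ends at the base before the start.
Cxcl1 (chr5:90891125-90891244, + strand): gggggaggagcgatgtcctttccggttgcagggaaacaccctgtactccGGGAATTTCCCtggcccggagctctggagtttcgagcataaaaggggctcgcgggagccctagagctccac
Cxcl2 (chr5:90903779-90903898, + strand): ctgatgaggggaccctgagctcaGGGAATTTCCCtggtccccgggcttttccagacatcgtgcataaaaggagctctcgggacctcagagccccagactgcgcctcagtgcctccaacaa
Cxcl3 (chr5:90785981-90786100, + strand): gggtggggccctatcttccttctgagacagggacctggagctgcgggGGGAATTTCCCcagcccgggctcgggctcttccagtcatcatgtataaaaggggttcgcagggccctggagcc
Cxcl10 (chr5:92348890-92349107, - strand): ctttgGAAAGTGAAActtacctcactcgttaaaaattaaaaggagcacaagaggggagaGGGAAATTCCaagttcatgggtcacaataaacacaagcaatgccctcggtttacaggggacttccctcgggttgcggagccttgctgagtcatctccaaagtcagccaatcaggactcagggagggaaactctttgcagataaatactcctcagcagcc
The match describes letters and was not set against any measure of binding.

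Cxcl1, a ligand of Cxcr2, was the member of this group that passed. It was at 5.21, 1.66, 4.38 and 1.29 FPKM in Arrest mice at 1 d and at 0, 0.806, 0.243, 0 and 0.555 in Naïve mice, and all 4 Arrest libraries were above all 5 Naïve ones. Its log2 fold change was 1.55 ± 0.45, with an adjusted p of 0.03 with 37 libraries and 0.024 with 36. The adjusted p was between 0.06 and 0.12 when replicate 1 or 3 of Arrest 1 d or replicate 1 or 4 of Naïve was left out. At 0.5 d after arrest the group was split. Replicate 2 held 10.3 FPKM of Cxcl1 and the other 3 libraries 0.457, 0.412 and 1.99. The same library held 4.63 FPKM of Cxcl2 against 0 to 0.311 in the others, 3.15 of Cxcl3 against 0 to 0.163, and 9.18 of Cxcl5, where replicate 4 reached 6.94 and the rest at most 0.656. It was the highest of all 37 libraries in 5 members, these 4 and Ccl6. S100a8, an abundant neutrophil transcript, was at 11.8 FPKM in it and at 5.45, 1.02 and 6.25 in the other 3, and Il6 was at 4.04 against at most 0.325. The endothelial adhesion genes Sele and Selp were at 5.71 and 5 FPKM there, and at most 0.873 and 1.83 in the others. Tnf was at 0.144 FPKM there and at 0.261, 1.02 and 0.214 in the others. Replicate 1 of Arrest 3 d held more S100a8 (16.7 FPKM) and Sele (8.02), and less Selp (3.2) and Il6 (0). Cxcl1, Cxcl2, Cxcl3 and Cxcl5 were at 0.539, 0, 0 and 1.66 FPKM in that replicate. The part of S100a8, Il6, Tnf, Sele and Selp in the chemokine levels was not tested. Cxcr2, the receptor, was listed at 0 in all Naïve libraries, at 0.0844 to 0.33 FPKM (4 to 17 fragments) in Arrest mice at 0.5 d, and reached 1.44 in 1 Adr library at 1 d, and it did not pass the filter on low values.

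**Figure D5:**
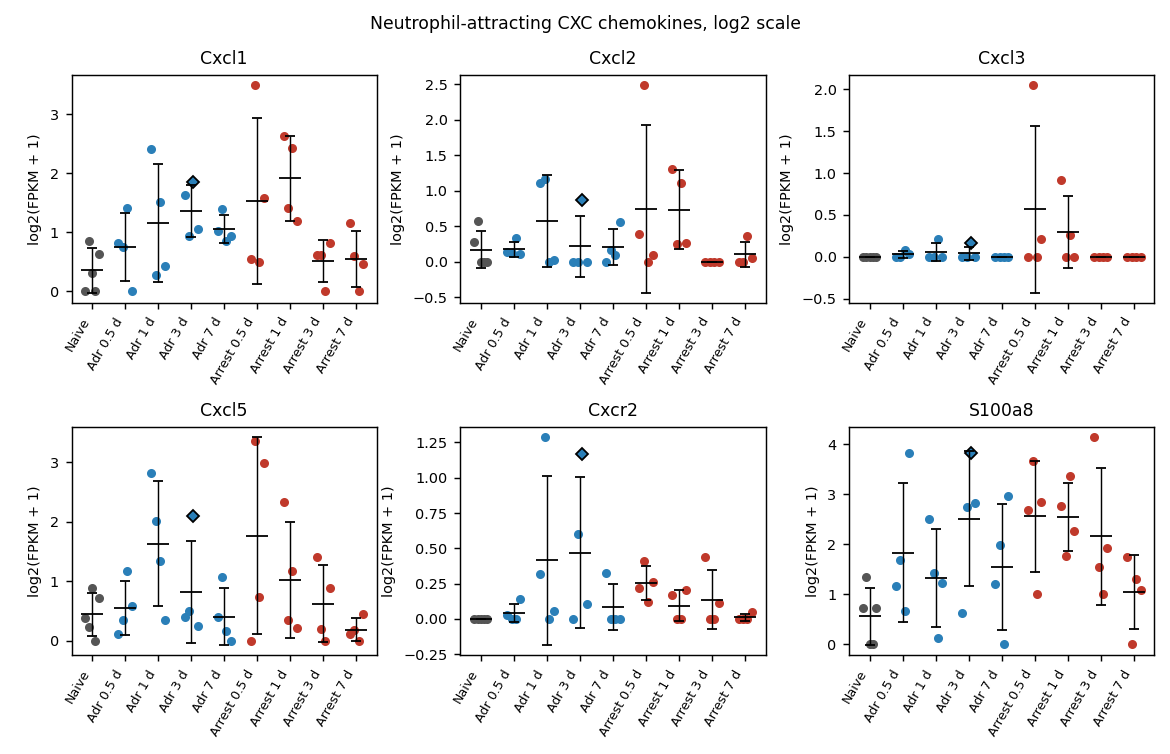
Log2(FPKM + 1) of Cxcl1, Cxcl2, Cxcl3, Cxcl5, Cxcr2 and the neutrophil transcript S100a8 in each library (points) by group (horizontal axis), with the group mean and SD (bars) and replicate 3 of Adr 3 d as a diamond. Replicate 2 of Arrest 0.5 d is the highest point for Cxcl1, Cxcl2, Cxcl3 and Cxcl5, and the Cxcl1 values of Arrest mice at 1 d lie above all Naïve values.

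Among the CXC ligands of resting tissue, Cxcl14 rose after arrest. Cxcl14 was at 24.3, 29.8, 37.7 and 35.6 FPKM in Arrest mice at 1 d and at 11.2, 7.82, 15.9, 21.5 and 12.8 FPKM in Naïve mice, without overlap. This was a log2 fold change of 1.20 ± 0.36 with an adjusted p of 0.038 with 37 libraries and 0.017 with 36. At 0.5 d the 4 Arrest libraries held 27.5 to 31.5 FPKM, a log2 fold change of 1.12 ± 0.36 whose adjusted p was 0.08 with 37 libraries and 0.039 with 36. Arrest libraries at 3 d (9.25 to 22.3) and 7 d (9.59 to 24.8) overlapped Naïve. Adr libraries at 0.5 d held 19.1, 18.8, 22.2 and 37.2 FPKM, a log2 fold change of 0.79 ± 0.36 (adjusted p = 0.32), and the direct comparison of the arms on that day gave 0.33 ± 0.38 (adjusted p = 1). In Adr mice at 3 d and 7 d the log2 fold changes against Naïve were 0.59 ± 0.36 and 0.60 ± 0.36 (adjusted p = 0.47 and 0.88). The Adr libraries at 3 d held 31.4, 10.7, 8.46 and 55.6 FPKM, the last of them the highest of all 37. Without replicate 3, at 8.46 FPKM, the mean of that group was 32.6 ± 22.5 FPKM. Arrest mice at 1 d had a mean of 31.9 ± 6.03 FPKM. Adr libraries at 1 d ranged from 9.65 to 24.3 FPKM, and the direct comparison of Arrest with Adr at 1 d gave 1.07 ± 0.38 with an adjusted p of 0.61. The Naïve call at 1 d was lost, with an adjusted p of 0.057 to 0.12, when any 1 of the 4 Arrest libraries or replicate 1, 2 or 5 of Naïve was left out.

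Cxcl12 was lower in Adr mice at 1 d than in Naïve mice. It was at 20.1, 16, 11.1 and 15.8 FPKM in Adr mice at 1 d and at 28.5, 29.1, 23.4, 20.7 and 24.6 FPKM in Naïve mice, so that all 4 Adr libraries were below all 5 Naïve ones. Its log2 fold change was -0.67 ± 0.14, with an adjusted p of 0.018 with 37 libraries and 0.0087 with 36. Leaving out replicate 3 or 4 of Adr 1 d ended the call, with an adjusted p of at most 0.11 and a log2 fold change of -0.52 or below. At 0.5 d it was at 17.8 ± 2.69 FPKM in Adr mice (log2 fold change -0.48 ± 0.14, adjusted p = 0.1). In Arrest mice it was at 19.7 ± 2.98 at 0.5 d and 20.2 ± 2.95 at 1 d, with log2 fold changes of -0.34 ± 0.14 and -0.31 ± 0.14 that did not pass (adjusted p = 0.16 for both). The difference between Arrest and Adr at 1 d was 0.36 ± 0.14 (adjusted p = 0.7). Its receptors did not pass. Ackr3 had group means between 27.7 and 35.1 FPKM, with log2 fold changes of -0.23 to 0.12 in the 8 comparisons with Naïve, each with a standard error of 0.17. Cxcr4 had log2 fold changes of 0.03 to 0.58 with 37 libraries, the highest in Adr mice at 3 d, where it rested on replicate 3. Cxcl16, a ligand of Cxcr6 with a membrane-bound form, was lowest in Arrest mice at 1 d (4.53 ± 2.53 FPKM against 6.64 ± 0.994 in Naïve mice, adjusted p = 0.27).

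The atypical receptors Ackr2 and Ackr4 changed in opposite directions in Arrest mice at 1 d. Ackr2, which clears inflammatory CC chemokines, was at 3.95, 3.95, 3.24 and 1.6 FPKM there and at 1.25, 1.03, 1.87, 1.39 and 0.547 FPKM in Naïve mice. Replicate 4 of Arrest lay within the Naïve range. The difference in Ackr2 was 0.90 ± 0.24 on the log2 scale, with an adjusted p of 0.018 with 37 libraries and 0.015 with 36, and of 0.055 to 0.075 without replicate 1, 2 or 3 of Arrest 1 d or replicate 5 of Naïve. On the other days Ackr2 stayed between 0.472 and 2.95 FPKM in Arrest mice. Ackr4, which clears the Ccr7 ligands Ccl19 and Ccl21a, was at 0.482, 0.673, 0.259 and 0.274 FPKM in Arrest mice at 1 d, and at 1.31, 1.22, 1.16, 2.38 and 1.35 FPKM in Naïve mice. It was at 0.35 to 0.765 FPKM already at 0.5 d after arrest, so that both early Arrest groups lay below all Naïve libraries. The log2 fold change was -0.79 ± 0.25 at 1 d (adjusted p = 0.047 with 37 libraries, 0.035 with 36) and -0.71 ± 0.25 at 0.5 d (adjusted p = 0.11). At 1 d the adjusted p was 0.052 to 0.14 when any 1 of the 4 Arrest 1 d or 5 Naïve libraries was left out. Adr libraries at 1 d held 1.26 to 2.06 FPKM of Ackr4, and the difference of Arrest from Adr was -0.88 ± 0.26 with an adjusted p of 0.47. In the table Ackr4 lies over part of Acad11, a gene on the other strand at a mean of 9.56 FPKM, and fragments of the pair cannot be told apart where the counted strand is unknown. Acad11 had a log2 fold change of -0.38 ± 0.20 at 1 d (adjusted p = 0.26). Ackr1, the chemokine receptor of venules and red cells, was at most 1.01 FPKM in any library and passed in no comparison.

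Ccl27a, a skin chemokine whose gene overlaps Il11ra1 on the other strand, passed in both arms with 37 libraries, as no other member did. It was at 2.28, 1.74, 2.77 and 4.19 FPKM in Arrest mice at 1 d, at 3.81, 2.91, 2.01 and 3.7 in Adr mice at 1 d, and at 1.56, 1.7, 0.96, 0 and 1.75 in Naïve mice. Adr libraries were all above Naïve, and 1 Arrest library lay within the Naïve range. The log2 fold changes were 0.82 ± 0.23 after arrest (adjusted p = 0.027 with 37 libraries, 0.02 with 36) and 0.96 ± 0.23 after adrenaline (adjusted p = 0.043 and 0.021). At 0.5 d after arrest it was at 2.18 to 3.15 FPKM, with an adjusted p of 0.053 with 37 libraries and 0.038 with 36. Naïve replicate 4, in which it was listed at 0, carried part of this. Without that library the log2 fold change at 1 d was 0.56 in Arrest mice and 0.71 in Adr mice, and neither passed. The Arrest call was also lost without replicate 1, 3 or 4 of Arrest 1 d and the Adr call without any 1 of the 4 Adr 1 d libraries or replicate 3 of Naïve, with adjusted p of at most 0.098 and 0.11. Il11ra1 stood at a mean of 18.4 FPKM and had log2 fold changes of -0.10 ± 0.12 after arrest and 0.07 ± 0.12 after adrenaline at 1 d. Ccl21a, the highest member, ranged from 18.3 to 148 FPKM, with log2 fold changes of -0.42 to 0.68 against Naïve and no call. Of 5 lymphatic markers, Pdpn was higher (log2 fold change 1.40 ± 0.37, adjusted p = 0.034) and Prox1 lower (-0.93 ± 0.18, adjusted p = 0.0053) in Arrest mice at 0.5 d. Of all genes 3.21% passed there, 7.11% in Arrest mice at 1 d, and 0.188% and 0.69% in Adr mice at 0.5 d and 1 d. Prox1 was also lower in Arrest mice at 1 d (-0.77 ± 0.18, adjusted p = 0.0098) and in Adr mice at 0.5 d (-0.84 ± 0.18, adjusted p = 0.046) and 1 d (-0.74 ± 0.18, adjusted p = 0.05), and the part of these markers in Ccl21a was not tested. Its copies Ccl21b and Ccl21d were above 0 in fewer than 4 libraries, and how fragments were shared between these near-identical genes is not given in the sources used here.

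The interferon-induced ligands Cxcl9 and Cxcl10, which draw T and NK cells through Cxcr3, passed in no comparison. Cxcl9 was at 0.532, 1.09, 0.0257 and 0.704 FPKM in Arrest mice at 1 d and at 0.805 to 3.86 in Naïve mice, a log2 fold change of -0.94 ± 0.36 with an adjusted p of 0.11. Cxcl10 was at most 0.936 FPKM in Naïve mice and at 0 to 2.79 in Arrest mice at 3 d, where its log2 fold change was 0.69 ± 0.44 (adjusted p = 0.51). Cxcl10 lies over part of Art3, a heart gene on the other strand at a mean of 53.2 FPKM. Cx3cl1, the membrane-bound ligand fractalkine, was at 1.63 to 2.05 FPKM in Arrest mice at 1 d and at 2.01 to 3.31 in Naïve mice (log2 fold change -0.37 ± 0.16, adjusted p = 0.16). Its receptor Cx3cr1 was at 0.779, 0.287, 0.155 and 0.955 FPKM in Arrest mice at 1 d, below all Naïve libraries (1.3 to 4.65). Its log2 fold change was -1.25 ± 0.42, with an adjusted p of 0.063 with 37 libraries and 0.03 with 36. The span listed for Cx3cr1 also covers other genes of the heart, among them Xirp1 at a mean of 30.2 FPKM, which had a log2 fold change of 0.75 ± 0.32. Xcl1, a ligand made by T and NK cells, was listed at 0 in all Naïve libraries and at 1.43, 0, 1.42 and 0.148 FPKM in Adr mice at 1 d, with at most 12 fragments in a library and an adjusted p of 0.071 with 37 libraries and 0.043 with 36.

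Members of the lymphoid and T cell axes were sparse. Cxcl13, which draws B cells, reached 4.97 FPKM in Arrest mice at 0.5 d, with a mean of 2.04 ± 2.46 against 0.22 ± 0.322 in Naïve mice (adjusted p = 0.18). Ccr7, the receptor of Ccl21a, was at most 0.129 FPKM in Naïve mice and at most 0.709 in Arrest mice at 0.5 d. The receptors Cxcr3, Cxcr6 and Ccr10 and the ligand Ccl17 had group means of at most 1.3 FPKM and passed in no comparison. Ccl24, made by resident macrophages, was at 4.12 ± 1.93 FPKM in Naïve mice and at 1.95 ± 1.44 in Arrest mice at 1 d, with overlapping libraries (log2 fold change -0.87 ± 0.35, adjusted p = 0.13).

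The 13 members below the filter were Ccl19, Ccl22, Ccl25, Ccl28, Ccr4, Ccr8, Ccr9, Cxcl3, Cxcl11, Cxcl17, Cxcr2, Cxcr5 and Xcr1. None of them passed in a fit without the filter, in which limma called 1 of all 51 members, Cxcl12 in Adr mice at 1 d. The share of all genes called in that fit is not given here. Their highest single values were 3.15 FPKM for Cxcl3 and 2.76 for Ccl19.

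Genes around the family were read from lists of the same kind, with values of 37 libraries. Beside them, 3.21% of all genes passed in Arrest mice at 0.5 d, 7.11% at 1 d and 0.188% in Adr mice at 0.5 d. Counts in such short lists rest on few genes. Of 7 chemokine-like genes outside the name rule, 2 rose in Arrest mice at 1 d, Mif (log2 fold change 0.58 ± 0.15, adjusted p = 0.015), a cytokine that also binds Cxcr2 and Cxcr4, and the chemerin receptor Cmklr1 (0.82 ± 0.20, adjusted p = 0.012). Of 27 tested genes that carry the signal of chemokine receptors, 1 rose at 0.5 d and 2 at 1 d after arrest, and none fell, with Gngt2, a G protein gamma subunit, at 1.26 ± 0.25 at 0.5 d (adjusted p = 0.0048). Gngt2 also passed in Adr mice at 0.5 d, with 1.26 ± 0.25 (adjusted p = 0.025). Of 11 tested genes of leukocyte adhesion, Selp rose at 0.5 d after arrest (1.24 ± 0.36, adjusted p = 0.047) and the junction gene Jam2 fell by 0.43 on the log2 scale at 1 d (adjusted p = 0.04). Of 13 tested cytokine and NF-kB genes, the TNF receptor Tnfrsf1a rose at 0.5 d (1.23 ± 0.18, adjusted p = 0.00054) and, with the adaptor Myd88 (0.74 ± 0.23, adjusted p = 0.045), at 1 d. Without replicate 3 of Adr 3 d, Itgam (0.91), Itgb2 (1.23) and Myd88 (0.70) were also called higher at 0.5 d after arrest, with adjusted p of 0.035, 0.041 and 0.029. In Adr mice at 0.5 d, Mif (0.55) and Tnfrsf1a (0.71) were then higher and Jam2 (-0.50) lower, with adjusted p of 0.041, 0.04 and 0.0078. Gngt2 was then also higher in Adr mice at 1 d (0.91, adjusted p = 0.038), and the G protein subunit Gnb2 was higher in Arrest mice at 3 d (0.45, adjusted p = 0.019). Without that library 5.51% of all genes passed in Arrest mice at 0.5 d and 1.13% at 3 d. In Adr mice 1.35% passed at 0.5 d and 2.52% at 1 d.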

How the data were processed

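Left ventricular RNA was sequenced by Novogene; FastQC was run on the reads, HISAT2 aligned them, and the authors deposited 1 table of FPKM with gene lengths. The genome build, annotation, counter and strand are not given in the sources used here. FPKM times length was a whole multiple of 1 fragment in 100% of values (tolerance 0.01), which gave the 13197037 to 30179901 fragments per library that set the precision of low values; voom on these fragments was an alternative. All libraries had the same median-ratio factor (1.013), so the values as deposited already shared a median-ratio scale. The 16530 genes that reached 0.5 FPKM in 4 or more libraries entered limma (version 3.58.1, R version 4.3.3, moderated with a trend, pseudocount 1, 1 mean per group, no covariates), and p-values were adjusted by Benjamini-Hochberg over all genes within each of 14 comparisons. The fit was tested on simulated data. Groups came from the sample labels, and none of the 58 library pairs within a group was a duplicate. The paper excluded a 3-day Adr sample that the labels do not identify. Given in full are members called with 37 libraries, members with a group mean of at least 5 FPKM and 16 members chosen by role. Members called with 36 libraries, Ccl3, Ccl5 and the single libraries described were chosen after their values were seen. Members and lists were chosen with earlier results of these data known. Promoters came from RefSeq. Figures used matplotlib 3.10.9 in Python 3.11.15. Values of 1 member, which was called in no comparison, are not reported here; it stays in the counts.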

Additional observations from a re-analysis of the deposited data

Results flagged for a closer look

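In the 25 members given in full, 225 sets of 4 or 5 libraries were examined for a single library far from the rest on the log2(FPKM + 1) scale, and 19 held one. For independent, normally spread values chance alone gives about 1 in 20, but the sets share libraries and some lie at 0. Where all other libraries are at 0, any value is flagged, as for Cxcr2 in Arrest 7 d replicate 4 (0.0336 FPKM). The 19 therefore cannot be set against that rate. In 5 of them it was replicate 3 of Adr 3 d, with Ccr2 at 11.3 FPKM, Cx3cr1 at 9.65, Cxcl2 at 0.821, Cxcl5 at 3.25 and Cxcr4 at 28.3. Other libraries stood above their group in Ackr4 (Naïve replicate 4, 2.38 FPKM), Ccl2 (Arrest 1 d replicate 4, 11.4), Cx3cr1 (Adr 1 d replicate 1, 5.51), Cxcl12 (Adr 0.5 d replicate 2, 21.8) and Cxcl16 (Arrest 0.5 d replicate 3, 8.97). Cxcl2 did so in Arrest 0.5 d replicate 2 at 4.63 FPKM, and at 0.258 and 0.286 in Adr 0.5 d replicate 3 and Arrest 7 d replicate 3, and Cxcr2 at 0.255 and 0.0336 in Adr 7 d replicate 1 and Arrest 7 d replicate 4. Libraries below their group were Arrest 0.5 d replicate 1 in Ccl7 (2.67 FPKM against 23.6 to 34), Arrest 0.5 d replicate 2 in Cx3cl1 (2.33), Arrest 3 d replicate 3 in Cxcl12 (20.7) and Arrest 7 d replicate 4 in Cxcr4 (2.1).

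Of the 10 genes that matched the name rule but were above 0 in fewer than 4 libraries, 5 had a value above the Naïve level in at least 1 library. Ccl26 reached 1.52 FPKM in Adr 7 d replicate 2, Cxcl15 0.312 in Arrest 7 d replicate 1, Ccr3 0.177 in Adr 3 d replicate 3, Ccl27b 0.163 in Arrest 7 d replicate 4 and Ccl1 0.0545 in Adr 0.5 d replicate 2.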

How the results depend on the processing

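The 26 differences of single members that passed in at least 1 fit kept their direction in all of their alternatives (0 changes of sign), but the calls were fragile, with 83 values no longer past the threshold, and sizes moved. With the description number as covariate the log2 fold change at 1 d after arrest was 0.31 for Ackr2 (adjusted p = 0.75) against 0.90, and 0.60 for Cxcl1 (adjusted p = 0.75) against 1.55. For Arrest at 0.5 d against Naïve (1 member), 0 were called after quantile normalization, without the filter, with the length trend removed and with the replicate number as a block, 2 with a pseudocount of 0.1 and 3 with sample quality weights, and leaving out 1 library gave 0 to 5. With the description number as covariate 1 was called, Cxcl14 (adjusted p = 0.034) in place of Ccl6 (adjusted p = 0.068). For Arrest at 1 d (5 members), 0 were called without the filter and with the description number as covariate, 1 with the length trend removed, 2 with the replicate block and with voom on recovered fragments, and 9 with quality weights, and leaving out 1 library gave 0 to 8. For Adr at 1 d (2 members), 0 were called when scaled by counted fragments, with the length trend removed, with the description number and with only the compared groups, and 1 after quantile normalization, with a pseudocount of 0.1, without the filter and with the replicate block, and leaving out 1 library gave 0 to 5. Quality weights called 1 member in Adr mice at 0.5 d and 4 in Arrest at 0.5 d against 7 d, where a fit of only these groups called 3 and leaving out 1 library gave 0 to 2. For Adr at 3 d leaving out 1 library gave 0 to 1. The highest counts left out replicate 3 of Adr 3 d, apart from Adr at 3 d. The cause was not tested. The shares of all genes called under these alternative settings are not given here. A change in the count of members may therefore follow a change over all genes.

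The replicate numbers do not pair the libraries: correlations of same-numbered libraries ran from -0.277 to 0.237, and in no comparison were all over 0.1. Precision is limited for members with few fragments in libraries as shallow as 13197037 fragments.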
